A study of Mus musculus with 30 samples.

Results

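Chac1 and 8 further genes of the integrated stress response (Atf4, Atf5, Ddit3, Trib3, Asns, Sesn2, Psat1 and Phgdh) were followed on 30 arrays of differentiating mouse embryonic stem cells. They are 9 of the 18193 genes measured, and every probe set annotated with exactly 1 of these symbols was taken, which gave 19 of 34945 probe sets. The 9 genes were chosen from their values on these same arrays, so their own levels are given as a description and support no inference. No p-value is printed for them, and the counts of them past the threshold of the fit are also only descriptive. Another 2 probe sets that carry the Phgdh symbol beside others were left out. The probe set with the highest mean over all arrays stands for each gene unless another is named.

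KH2 mouse embryonic stem cells were grown on feeder fibroblasts and exposed to retinoic acid (RA), held at 0.3 uM in the differentiation medium per the labels' protocols. Total RNA was taken at 8, 12, 16, 24, 36, 48, 60 and 72 h. Treatment is given as baseline for the arrays of 8 h and as retinoic acid for those of every later time, and all groups share the same cell line and feeder culture. Arrays carry the letters A to C, and at 12 h and 24 h also D to F, so that each of the 10 groups of time and letters holds 3 arrays.

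Before lysis the cells were replated on gelatin for 30 min, and the protocols describe in 2 ways which cells were then kept. KH2 is a single cell line, and nothing in the labels says that the arrays of a group came from separate cultures. The p-values therefore measure the spread between these arrays, which may be technical.

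The arrays fell on 2 sides in the spike-in and B2 control probe sets. The difference between the BioDn and BioC spike-ins was 0.99 to 1.07 (log2) on the 12 arrays of 8 h, 16 h and letters A-C of 12 h and 24 h. On the 18 arrays of letters D-F and of 36 h onwards it was 1.34 to 1.63. A control for 18S rRNA overlapped between the sides, at 9.03 to 11.12 on the first and 7.99 to 9.17 on the second. The control for the B2 repeat read 14.60 to 14.75 on the first side and 14.95 to 15.07 on the second, with no overlap. Comparisons over time were therefore kept on 1 side. A comparison of letters D-F with A-C crosses it, and what the letters stand for and these control differences cannot be told apart. The embryonic stem cell markers were present, with mean levels over 8 markers of 12.58 to 12.66 on the 8 h arrays. All 5 measured RA response genes were called higher at 12 h A-C than at 8 h (all genes: 12.9%), and 4 of the 5 with the values normalised by quantiles again. The call of Stra6 was lost with array A of 8 h left out. The levels of 10 feeder fibroblast markers are given below, beside the results they move with.

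The integrated stress response begins with kinases that phosphorylate the translation factor eIF2, which slows protein synthesis in general while the transcription factor Atf4 is translated more. Each kinase senses a different stress: amino acid shortage (Eif2ak4), unfolded protein in the endoplasmic reticulum (Eif2ak3), heme shortage (Eif2ak1) and double-stranded RNA (Eif2ak2). Atf4 then switches on genes for amino acid synthesis and uptake, further transcription factors such as Ddit3 (CHOP) and Atf5, and brakes such as Trib3. Chac1 is a target of this branch, and its enzyme breaks down glutathione, the main thiol antioxidant of the cell.

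Stretches before the start sites of 4 of the genes are shown because they hold letters of the type bound by Atf4 with C/EBP partners. All 9 genes had a promoter in RefSeq's table for GRCm38.p6, 11 promoters in all, and the 250 bases before each start were searched on both strands. The motif TGATGNAA stood in 3.45% of all 32851 promoters of that table. The motif TGACGNAA stood in 1.39%, and TGGTGCAA, which was added after the promoters of the 9 genes were read, in 0.463%. The 3 motifs do not overlap in the stretches below, where matching letters are in capitals and the gene's direction is 5′ to 3′.
Chac1: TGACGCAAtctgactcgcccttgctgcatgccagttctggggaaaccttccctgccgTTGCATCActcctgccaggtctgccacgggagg
Trib3: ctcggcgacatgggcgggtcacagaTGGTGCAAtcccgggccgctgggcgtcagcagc
Asns: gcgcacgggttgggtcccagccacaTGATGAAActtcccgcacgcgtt
Psat1: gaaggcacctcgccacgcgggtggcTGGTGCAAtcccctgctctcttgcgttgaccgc

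The Chac1 stretch lies at chr2:119350992-119351081 on the plus strand. It carries TGACGNAA at position -250 before the start and TGATGNAA on the opposite strand at position -193. The Trib3 stretch lies at chr2:152344061-152344118 on the minus strand, with TGGTGCAA at position -33. The Asns stretch lies at chr6:7693210-7693257 on the minus strand, with TGATGNAA at position -23. The Psat1 stretch lies at chr19:15925163-15925220 on the minus strand, with TGGTGCAA at position -136. Chac1 and Asns thus held 1 of the first 2 motifs or both, while Trib3 and Psat1 held only the one added after reading, so their match shows nothing beyond the choice of its letters. The other five genes (Atf4, Atf5, Ddit3, Sesn2 and Phgdh) had none of these letters in that window. A match describes letters only, and no binding was measured here.

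Chac1 had its highest levels at 8 h and at 24 h A-C, a dip at 16 h between them, and its lowest levels from 36 h onwards. Chac1 and Atf5 have only 1 probe set each, so their profiles could not be compared with those of another. On the first side of the arrays, Chac1 read 11.88, 12.10 and 11.67 at 8 h (letters A, B and C, log2 intensity). It read 10.83, 10.29 and 10.84 at 12 h A-C, and 9.58, 9.48 and 9.55 at 16 h. At 24 h A-C it was back at 12.19, 11.91 and 12.09. The 16 h arrays lay below every array of 8 h, 12 h A-C and 24 h A-C, while those of 8 h and 24 h A-C overlapped. The fitted change from 8 h to 12 h A-C was -1.23 ± 0.29 (log2, SE, n = 3 arrays a group). At 16 h it was -2.35 ± 0.29, or 5.09-fold lower than at 8 h, and from 16 h to 24 h A-C it was 2.53 ± 0.29, or 5.77-fold higher. Over the whole of 8 h to 24 h A-C the values thus returned to within 0.18 ± 0.29 of where they had been. The comparisons of 16 h with 8 h and of 24 h A-C with 16 h were added after the values had been seen.

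On the second side of the arrays, Chac1 went down with time. It read 11.18, 11.11 and 11.06 at 12 h (letters D, E and F) and 10.35, 9.76 and 10.01 at 24 h D-F. At 36 h it read 8.74, 8.38 and 9.02, and at 48 h it read 8.18, 8.16 and 8.69. The 12 h D-F arrays lay above all 24 h D-F arrays, and these above all arrays of 36 h and 48 h. At 60 h the values were 7.24, 7.63 and 9.03, and at 72 h they were 8.14, 8.64 and 9.02. Array C was the highest at both times, and the SD of 0.94 at 60 h was the largest of the 10 groups. From 12 h D-F to 72 h the change was -2.51 ± 0.29, or 5.71-fold lower, of which -1.08 ± 0.29 fell between 12 h and 24 h D-F and -1.70 ± 0.29 between 24 h D-F and 48 h. From 48 h to 72 h it was 0.26 ± 0.29, with overlapping arrays. Ordered by mean level, 24 h A-C and 8 h came first, followed by 12 h D-F, 12 h A-C, 24 h D-F and 16 h. In that order 24 h A-C overlapped 8 h, 12 h A-C overlapped 24 h D-F, and each of 36 h, 72 h, 48 h and 60 h, which came last, overlapped its neighbour.

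At 24 h the letters stood far apart: the D-F arrays lay -2.03 ± 0.29 from the A-C arrays, or 4.07-fold lower, with no overlap. At 12 h the order was turned, with D-F 0.46 ± 0.29 above A-C and no overlap. All 24 h A-C arrays thus lay above all 12 h A-C arrays, whereas all 24 h D-F arrays lay below all 12 h D-F arrays.

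**Figure D1:**
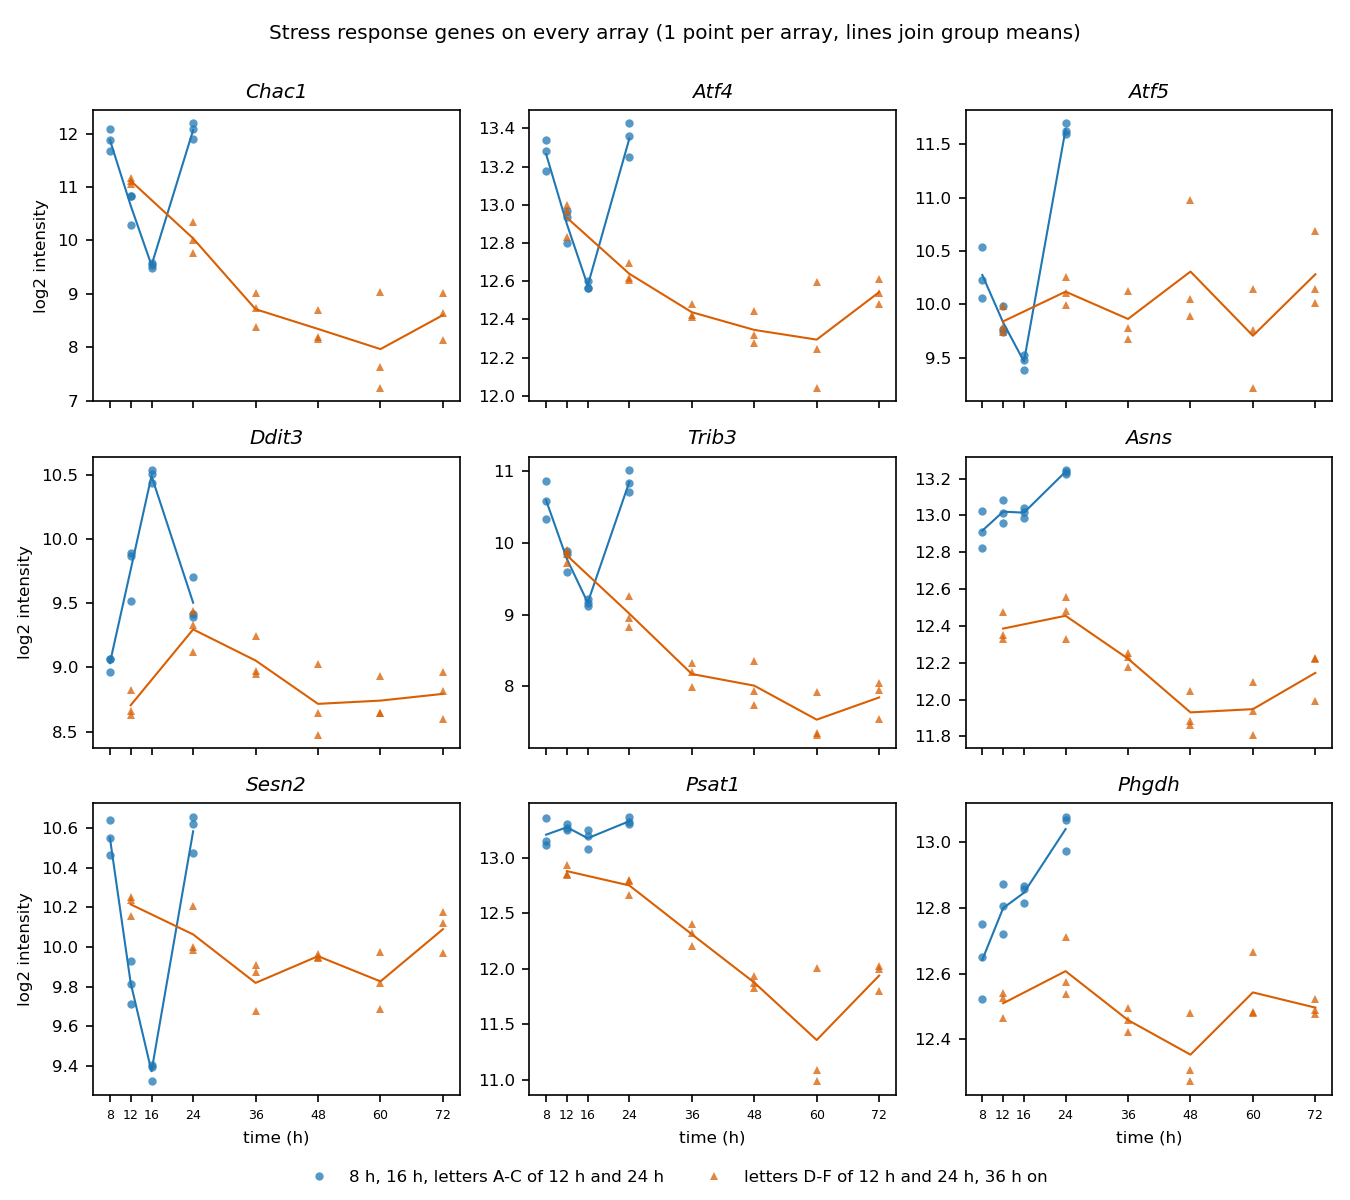
Log2 intensity of the 9 genes on each of the 30 arrays (y axis, own range for each gene) against time in hours (x axis); circles are 8 h, 16 h and letters A-C, triangles letters D-F and 36 h onwards, and lines join group means. Chac1, Atf4, Atf5, Trib3 and Sesn2 dip at 16 h, where Ddit3 has its highest values, and Asns, Psat1 and Phgdh are lower on all triangles of 36 h onwards than on the circles of 12 h to 24 h.

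Atf4, the transcription factor at the centre of the response, had the same order as Chac1 on the first side, over a smaller range. Atf4 read 13.28, 13.34 and 13.18 at 8 h, and 12.60, 12.56 and 12.57 at 16 h. At 24 h A-C it read 13.43, 13.25 and 13.36, so that the 16 h arrays lay below both groups without overlap. The change from 8 h to 16 h was -0.69 ± 0.09, and that from 16 h to 24 h A-C was 0.77 ± 0.09. On the second side the means declined from 12.93 ± 0.09 at 12 h D-F to 12.34 ± 0.09 at 48 h (SD, n = 3), and the level at 72 h was 12.54 ± 0.07. Letters D-F were 0.71 below A-C at 24 h (change -0.71 ± 0.09) and within 0.03 ± 0.09 at 12 h. The arrays measure Atf4 mRNA only, whereas the response raises Atf4 mainly through its translation. Atf4 has another 2 probe sets, and they did not all move alike: from 8 h to 16 h they changed by -0.74 and -0.31, and between the letters at 24 h by -0.06 and -0.29. At 12 h these 2 probe sets differed between the letters by 0.80 and -0.12.

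Atf5, a relative of Atf4 whose translation is controlled in a like way, had its highest values at 24 h A-C. Atf5 read 10.22, 10.54 and 10.06 at 8 h, 9.48, 9.38 and 9.53 at 16 h, and 11.60, 11.70 and 11.62 at 24 h A-C. The 24 h A-C arrays lay above all others. The change from 16 h to 24 h A-C was 2.17 ± 0.22, or 4.51-fold, and from 8 h to 24 h A-C it was 1.36 ± 0.22, or 2.57-fold. Atf5 was thus the gene among the 9 that ended highest above its 8 h level. On the second side it had no steady direction: group means lay between 9.71 ± 0.46 at 60 h and 10.31 ± 0.59 at 48 h, and array C was the highest at each of 36 h, 48 h, 60 h and 72 h. At 24 h, D-F lay at -1.52 ± 0.22 from A-C.

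Ddit3, which encodes the factor CHOP and is known for driving cell death under lasting stress, went the other way. Ddit3 read 9.07, 9.07 and 8.96 at 8 h, 9.52, 9.87 and 9.90 at 12 h A-C, and 10.51, 10.43 and 10.54 at 16 h. At 24 h A-C it read 9.70, 9.42 and 9.39. Its highest arrays of all were thus those of 16 h, the time at which Chac1, Atf4, Atf5, Trib3 and Sesn2 were lowest on this side. The change from 8 h to 16 h was 1.46 ± 0.13, or 2.75-fold higher, and from 16 h to 24 h A-C it was -0.99 ± 0.13. On the second side the mean of Ddit3 went from 8.71 ± 0.10 at 12 h D-F to 9.30 ± 0.16 at 24 h D-F and to 8.72 ± 0.28 at 48 h. The peak rests on 1 probe set, since the other Ddit3 probe set changed by 0.18 from 8 h to 16 h and by -0.36 from 16 h to 24 h A-C. Between 12 h and 24 h D-F both had changes above 0, of 0.59 and 1.25.

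Trib3, a pseudokinase that binds Atf4 and Ddit3 and restrains them, followed Chac1 most closely. Trib3 read 10.59, 10.87 and 10.33 at 8 h, 9.12, 9.17 and 9.22 at 16 h, and 11.02, 10.71 and 10.83 at 24 h A-C. At 12 h D-F it read 9.91, 9.72 and 9.85, at 24 h D-F 9.26, 8.96 and 8.83, and at 72 h 7.54, 7.95 and 8.04. The 16 h arrays lay below 8 h and 24 h A-C, and each step of the second side from 12 h D-F to 24 h D-F to 36 h was free of overlap. The changes were -1.43 ± 0.17 from 8 h to 16 h, 1.69 ± 0.17 from 16 h to 24 h A-C, and -1.98 ± 0.17, or 3.95-fold lower, from 12 h D-F to 72 h. At 24 h the letters differed by -1.84 ± 0.17 (D-F minus A-C), with the same -1.84 in the other Trib3 probe set.

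Sesn2, a stress-induced inhibitor of the growth kinase mTORC1, shared the dip of Chac1 but not its long decline. Sesn2 read 10.46, 10.64 and 10.55 at 8 h, 9.39, 9.40 and 9.32 at 16 h, and 10.66, 10.47 and 10.62 at 24 h A-C. The 16 h arrays were its lowest of all 30. The change from 8 h to 16 h was -1.18 ± 0.08, and from 16 h to 24 h A-C it was 1.21 ± 0.08. From 12 h D-F to 72 h the change was -0.13 ± 0.08, with overlapping arrays, and the other Sesn2 probe set gave 0.13.

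The 3 enzymes of amino acid synthesis did not share the dip. Asns makes asparagine, Phgdh makes the first intermediate of serine synthesis and Psat1 the second. Psat1 read 13.16, 13.36 and 13.11 at 8 h, 13.20, 13.08 and 13.25 at 16 h, and 13.37, 13.30 and 13.32 at 24 h A-C. Asns read 12.91, 13.02 and 12.82 at 8 h, 13.02, 12.99 and 13.04 at 16 h, and 13.24, 13.23 and 13.25 at 24 h A-C. For both genes the arrays of 8 h and 16 h overlapped, with changes of -0.03 ± 0.15 for Psat1 and 0.10 ± 0.08 for Asns. Phgdh changed by 0.20 ± 0.07 from 8 h to 16 h and by 0.40 ± 0.07 from 8 h to 24 h A-C, with the later arrays above the earlier ones.

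On the second side Psat1 had the largest decline of the enzymes. Psat1 read 12.84, 12.94 and 12.86 at 12 h D-F, 11.83, 11.87 and 11.93 at 48 h, 10.99, 11.09 and 12.01 at 60 h, and 11.80, 12.02 and 12.00 at 72 h. Array C of 60 h again stood above its 2 partners. From 12 h D-F to 72 h the change was -0.94 ± 0.15 for Psat1, -0.24 ± 0.08 for Asns and -0.01 ± 0.07 for Phgdh, whose arrays overlapped. The other Phgdh probe sets gave -0.05, -0.07 and -0.20, the last without overlap. At both 12 h and 24 h all 3 enzymes were lower on letters D-F than on A-C without overlap: at 24 h Asns lay at -0.78 ± 0.08, Psat1 at -0.58 ± 0.15 and Phgdh at -0.43 ± 0.07. In the other Psat1 probe set the letters overlapped at both times, with differences of -0.16 at 12 h and -0.28 at 24 h.

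Counts of the 9 genes past the threshold (limma's two-sided p-values adjusted by Benjamini-Hochberg across the 18193 genes, called under 0.05) are read against the share of all genes past it, and nothing further is read from them, since these values chose the genes. From 8 h to 12 h A-C, 1 was higher (background 12.9%) and 4 were lower (background 6.67%). Between 8 h and 16 h, 2 were higher (25.6%) and 5 lower (17.9%). Between 16 h and 24 h A-C, 7 were higher (17.4%) and 1 lower (16.9%). The overall step from 8 h to 24 h A-C left 4 higher (23.5%) and 0 lower (15.8%), and all 9 fitted changes were above 0. From 12 h to 24 h D-F, 1 was higher (16.0%) and 3 lower (14.8%), and from 24 h D-F to 48 h, 0 were higher (16.0%) and 7 lower (19.8%). From 48 h to 72 h, 0 of the 9 passed in either direction (9.74% higher and 5.96% lower among all genes), with fitted changes between -0.16 and 0.26. From 12 h D-F to 72 h, 0 were higher (26.2%) and 5 lower (34.5%). Between the letters at 12 h, 1 was higher on D-F (17.2%) and 4 lower (21.7%). At 24 h, 0 were higher on D-F (13.3%) and 8 lower (20.4%), with all 9 fitted changes below 0, from -2.03 to -0.21. The split of all genes into higher and lower depends on the scaling. With the values normalised by quantiles again, 3979 genes were higher and 4304 lower from 8 h to 16 h, in place of 4656 and 3255. For 24 h A-C against 8 h the same step gave 3462 and 3988 in place of 4277 and 2877, for 12 h A-C against 8 h 1813 and 1656 in place of 2341 and 1213, and for 72 h against 48 h 1521 and 1537 in place of 1772 and 1084.

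**Figure D2:**
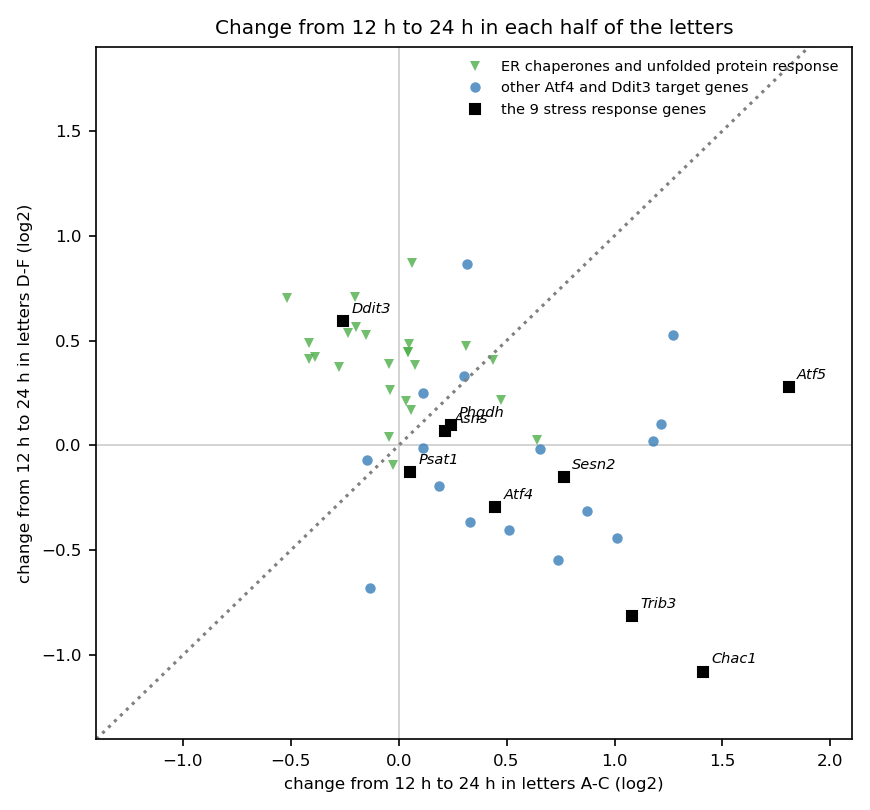
Change from 12 h to 24 h (log2) on letters A-C (x axis) against that on letters D-F (y axis); each point is 1 gene, squares are the 9 stress response genes, circles other Atf4 and Ddit3 target genes, triangles endoplasmic reticulum chaperones, and the dotted line marks equal change. Chac1, Trib3 and Atf4 lie right of 0 and below 0, and most chaperones lie above the dotted line.

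Wider lists of the pathway, which the choice of the 9 genes did not use, were tested in the same fit. They hold 16 measured further targets of Atf4 and Ddit3, 16 genes of the eIF2 kinases and eIF2 machinery, 14 enzymes of serine, glycine, proline and one-carbon metabolism, 19 cytosolic aminoacyl-tRNA synthetases, 24 endoplasmic reticulum chaperones and unfolded protein response genes, and 12 glutathione enzymes. The lists were written with earlier results of these arrays known. They were described by counts and medians, and adjusted p-values below are limma's.

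Among the other Atf4 and Ddit3 target genes, 7 of 16 were called lower and 1 higher from 8 h to 16 h (all genes: 17.9% lower, 25.6% higher), and the median change was -0.29 against -0.01 over all genes. From 16 h to 24 h A-C, 12 rose and 0 fell (all genes: 17.4% and 16.9%), the median being 0.61 against -0.02. All 7 genes that fell in the first step were among the 12 that rose in the second. Both steps use the same 16 h arrays, which by itself favours such an overlap. The share of all genes that fell and then rose was not counted, so nothing further is read from it. Atf3, a stress-induced repressor and activator of the same family as Atf4, had the largest swing. Atf3 fell by 1.73 ± 0.12 from a mean of 9.88 at 8 h to 8.15 at 16 h (adjusted p = 4.33e-11) and rose by 2.12 ± 0.12 to 10.27 at 24 h A-C (adjusted p = 8.52e-12). Stc2, a secreted glycoprotein, fell by 0.81 ± 0.09 (adjusted p = 1.61e-07) from 8 h to 16 h. Jdp2, a repressor that dimerises with Atf and Jun proteins, fell by 0.85 ± 0.18 (adjusted p = 0.000453) and then rose by 1.84 ± 0.18 (adjusted p = 3.25e-08). Vldlr, a lipoprotein receptor, rose by 1.45 ± 0.17 (adjusted p = 3.08e-07) from 16 h to 24 h A-C. At that step the stress-induced Nupr1 rose by 1.02 ± 0.28 (adjusted p = 0.00643), but with 24 h taken over all 6 letters its change was -0.05.

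At 24 h the letters differed in every gene of this list: 16 of 16 were lower on D-F (all genes: 20.4%; 15 of the 16 with the values normalised by quantiles again), with a median of -1.14 against -0.03 over all genes. Jdp2 was at -2.20 ± 0.18 (adjusted p = 2.47e-09), Nupr1 was at -2.15 ± 0.28 (adjusted p = 2.39e-06) and Vldlr at -2.09 ± 0.17 (adjusted p = 1.62e-09). Ero1a, an oxidase of the endoplasmic reticulum, was at -1.46 ± 0.13 (adjusted p = 7.58e-09). At 12 h, 9 of the 16 were lower on D-F and 1 was higher (median -0.49; all genes: 21.7% and 17.2%). The change from 12 h to 24 h differed between the letters in 11 of 16, against 19.1% of all genes, and in all 11 the difference was toward lower values on D-F. Feeder fibroblast markers were called in 0 of 10 between the letters at 24 h by limma (all genes: 13.3% higher and 20.4% lower). Their median change was 0.36 against -0.03 over all genes, and 2 of 10 had an unadjusted p under 0.05 in limma. Without overlap, Thy1 (0.71), Prrx1 (0.49), Twist2 (0.42) and Pdgfrb (0.30) lay higher on D-F and Dcn (-1.09) lower. The lack of calls does not show equal levels. With the replicate block Dcn (adjusted p = 0.0492) and Pdgfrb (adjusted p = 0.0496) were called there, and with the values normalised by quantiles again 1 of the 10 was. The mean over the 10 markers was 7.86 to 7.90 on A-C and 7.52 to 8.25 on D-F.

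At 72 h, 3 of this list were higher and 6 lower than at 12 h D-F, shares near those of all genes (26.2% and 34.5%), and the median change was -0.0031 against -0.09. Stc2 fell by 1.74 ± 0.09 (adjusted p = 6.8e-14) and Adm2, a peptide hormone, by 0.87 ± 0.12 (adjusted p = 1.44e-06). Atf3 rose by 1.45 ± 0.12 (adjusted p = 8.18e-11) and Jdp2 by 1.02 ± 0.18 (adjusted p = 2.88e-05). Atf3 thus ended high where Chac1 was low, although both had their lowest values of the first side at 16 h.

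Enzymes of serine, glycine and one-carbon metabolism declined late in the course. At 72 h, 13 of 14 were lower than at 12 h D-F and 0 were higher (all genes: 34.5% and 26.2%), and the median change was -0.89 against -0.09 over all genes. Cth, which makes cysteine, fell by 1.65 ± 0.14 (adjusted p = 4.56e-10). Psph, the last step of serine synthesis, fell by 1.38 ± 0.11 (adjusted p = 8.11e-11) and Mthfd2, a mitochondrial folate enzyme, by 1.34 ± 0.15 (adjusted p = 3.35e-08). Between 24 h D-F and 48 h alone, 12 of 14 were lower (all genes: 19.8%). On the first side the list rose in part: from 8 h to 24 h A-C, 8 were higher and 4 lower (all genes: 23.5% and 15.8%). Aldh1l2, a mitochondrial folate enzyme, rose by 1.74 ± 0.31 (adjusted p = 6.18e-05), while Shmt1, the cytosolic enzyme that converts serine to glycine, fell by 0.76 ± 0.08 (adjusted p = 3.07e-08). Between the letters at 24 h, 11 of 14 were lower on D-F and 1 was higher (all genes: 20.4% and 13.3%), led by Aldh1l2 at -2.23 ± 0.31 (adjusted p = 3.84e-06), the mitochondrial carboxykinase Pck2 at -1.99 ± 0.18 (adjusted p = 8.15e-09) and Cth at -1.94 ± 0.14 (adjusted p = 5.88e-10).

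The cytosolic aminoacyl-tRNA synthetases, which charge tRNAs with amino acids, were all lower at 72 h than at 12 h D-F. That count was 19 of 19, against 34.5% of all genes (median -0.60 against -0.09). Cars was at -1.01 ± 0.09 (adjusted p = 9.85e-10), Lars at -0.86 ± 0.09 (adjusted p = 7.35e-09) and Farsa at -0.80 ± 0.07 (adjusted p = 2.09e-10). At 16 h, 5 were higher and 5 lower than at 8 h (all genes: 25.6% and 17.9%). At 24 h A-C, 9 were higher and 3 lower than at 16 h (all genes: 17.4% and 16.9%), with Wars rising by 0.69 ± 0.08 (adjusted p = 2.16e-07).

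Markers of feeder fibroblasts rose during the same interval as these late declines. Between 24 h D-F and 48 h, 10 of 10 were called higher (median 2.24; all genes: 16.0%), and 9 of 10 were higher at 72 h than at 12 h D-F (all genes: 26.2%). Their summed level, given as the mean over the list, was 7.30 to 8.20 on the 12 h D-F arrays, 9.52 to 10.64 at 48 h and 9.36 to 10.31 at 72 h. Of the defining markers, Col1a2 had a mean of 12.77 at 48 h and Lum, the lowest, one of 5.93. Embryonic stem cell markers fell in the same span, with 7 of 8 called lower from 12 h D-F to 72 h (all genes: 34.5%). On the first side, 4 of 10 fibroblast markers were called higher from 8 h to 16 h (all genes: 25.6%), where the mean over the list went from 7.35 to 7.70 up to 8.11 to 8.68. The calls of Col1a2 and Prrx1 were each lost in 4 of the fits with 1 array left out. With the values normalised by quantiles again, 3 of 10 were called higher. From 16 h to 24 h A-C, 0 of 10 were called higher and 2 lower (all genes: 17.4% and 16.9%), of which Thy1 lost its call in 5 of the fits with 1 array left out. The median change of the markers in that step was -0.56 against -0.02 over all genes, and the list mean at 24 h A-C was 7.86 to 7.90. The part of feeder or other cells in the changes of Chac1 and its pathway was not tested. In RNA from a mixture, fewer cells of a type and less RNA per cell cannot be told apart.

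Chaperones of the endoplasmic reticulum and other unfolded protein response genes moved unlike Chac1 in some steps and like it in another. At 16 h, 16 of 24 were higher and 3 lower than at 8 h (all genes: 25.6% and 17.9%), with a median of 0.32 against -0.01. Derl3, a component of protein disposal, rose by 1.19 ± 0.09 (adjusted p = 1.47e-10), Sdf2l1 by 0.98 ± 0.11 (adjusted p = 1.57e-07) and Dnajc3, an inhibitor of the eIF2 kinase Eif2ak3, by 0.97 ± 0.07 (adjusted p = 1.07e-10). Herpud1 was the exception among the largest changes. Herpud1 fell by 1.07 ± 0.13 (adjusted p = 5.46e-07) and rose by 1.07 ± 0.13 from 16 h to 24 h A-C (adjusted p = 1.02e-06). Between 12 h and 24 h D-F, where the level of Chac1 went down, 20 of 24 were higher and 0 lower (median 0.42 against -0.03; all genes: 16.0% and 14.8%). Dnajc3 rose by 0.87 ± 0.07 (adjusted p = 3e-09) and Pdia6, a disulfide isomerase, by 0.71 ± 0.05 (adjusted p = 1.17e-10). From 24 h D-F to 48 h, where Chac1 went down further, the list moved the same way. There 2 of 24 were higher and 12 lower (all genes: 16.0% and 19.8%), with a median of -0.19 against -0.01.

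Of the eIF2 kinases and eIF2 machinery, 3 of 16 were higher and 8 lower at 16 h than at 8 h (all genes: 25.6% and 17.9%), with a median of -0.14 against -0.01. The heme-sensing kinase Eif2ak1 fell by 0.72 ± 0.07 (adjusted p = 6.64e-09) and rose again by 0.54 ± 0.07 to 24 h A-C (adjusted p = 9.78e-07). Ppp1r15a (GADD34), which directs the removal of phosphate from eIF2, fell by 0.43 ± 0.07 (adjusted p = 2.02e-05) and rose again by 0.50 ± 0.07 (adjusted p = 5.72e-06). The amino acid sensor Eif2ak4 rose by 0.51 ± 0.07 from 8 h to 16 h (adjusted p = 4.04e-06). At 72 h, 10 of 16 were lower and 3 higher than at 12 h D-F (all genes: 34.5% and 26.2%). Among them were subunits of eIF2B, the exchange factor that phosphorylated eIF2 blocks: Eif2b3 was at -0.88 ± 0.07 (adjusted p = 2.78e-11) and Eif2b1 at -0.51 ± 0.07 (adjusted p = 1.04e-06). Phosphorylation of eIF2 itself is not seen on arrays.

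Among glutathione enzymes, Chac2 is the close relative of Chac1 and cuts the same substrate. Chac2 fell from 12 h D-F to 72 h by 0.69 ± 0.08 (adjusted p = 1.06e-07). At 24 h it was lower on letters D-F (change -0.45 ± 0.08, adjusted p = 0.000154). From 12 h D-F to 72 h, 4 of 12 of this list were higher and 5 lower, shares near those of all genes (26.2% and 34.5%). Ggct, a cyclotransferase that acts on other gamma-glutamyl peptides, fell by 1.44 ± 0.09 (adjusted p = 1.45e-12). Gsr, glutathione reductase, fell by 0.86 ± 0.06 (adjusted p = 2.49e-11) and Gclc, the catalytic subunit of the enzyme that starts glutathione synthesis, by 0.75 ± 0.06 (adjusted p = 6.1e-11). Gpx8, a peroxidase of the endoplasmic reticulum, rose by 1.59 ± 0.18 (adjusted p = 5.27e-08). Levels of glutathione were not measured.

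Relatives of the other members differed among themselves. From 8 h to 16 h, 3 of 11 were higher and 4 lower (all genes: 25.6% and 17.9%). Trib1, of the same family as Trib3, fell by 0.60 ± 0.09 (adjusted p = 4.59e-06) and rose by 0.44 ± 0.09 from 16 h to 24 h A-C (adjusted p = 0.000375). Cebpd, a C/EBP factor, fell by 0.91 ± 0.17 (adjusted p = 8.06e-05) and rose by 1.01 ± 0.17 (adjusted p = 3.61e-05), and Atf3 did likewise with the values above. Sesn3, of the same family as Sesn2, rose by 1.05 ± 0.07 from 8 h to 16 h (adjusted p = 4.35e-11), the interval in which Sesn2 dipped, and by 1.33 ± 0.07 from 12 h D-F to 72 h (adjusted p = 5.06e-14). Trib1 and Trib2 were higher on letters D-F at 12 h, by 0.64 ± 0.09 (adjusted p = 2.75e-06) and 0.59 ± 0.10 (adjusted p = 7.75e-05), whereas Trib3 was within 0.05 ± 0.17 there.

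The genes whose profile lay nearest to that of Chac1 were Trib3, Slc7a3, Stc2, Tmem125 and 4833407H14Rik. Nearness was the root mean square difference between the means of the 10 groups, each gene centred on its own mean, over 18192 genes. It was 0.36 for Trib3, 0.48 for Slc7a3, a transporter of cationic amino acids, 0.52 for Stc2, 0.63 for Tmem125 and 0.66 for 4833407H14Rik, against a median of 1.39 over all genes. The groups share arrays and labels, so this is a description. Of the other members Psat1 ranked 100, Atf4 428, Asns 443, Sesn2 1533, Atf5 2035, Phgdh 3488 and Ddit3 8525. Slc7a3 had means of 11.83 ± 0.11 at 8 h, 10.80 ± 0.02 at 16 h, 11.84 ± 0.03 at 24 h A-C and 10.64 ± 0.14 at 24 h D-F (SD, n = 3). At 60 h it was at 8.19 ± 0.65, the largest spread among its groups, as for Chac1.

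**Figure D3:**
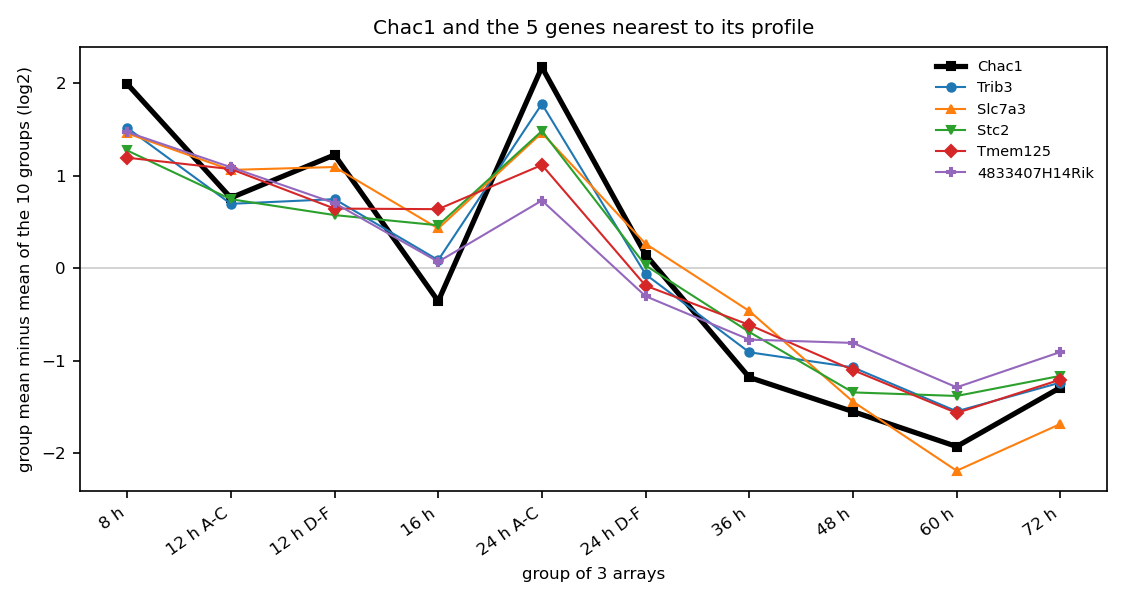
Group means of Chac1 and the 5 genes nearest to it, each minus the mean of its own 10 group means (y axis, log2), for the 10 groups of 3 arrays (x axis). All 6 genes have a local low at 16 h between 8 h and 24 h A-C, and are lower from 36 h onwards than in any earlier group.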

How the data were processed

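RNA of 30 samples was hybridised to 1 Affymetrix mouse array each, from 200 ng of RNA per the labels' protocols. The authors deposited log2 intensities, already normalised between arrays: array medians lie between 6.34 and 6.39. Background correction, probe summary and normalization are not given in the sources used here. The submitters' processing notes name limma 3.8.3. Of 45101 probe sets, 64 controls were dropped, as were 9160 without a symbol and 932 that list more than 1 symbol, and the probe set with the highest mean was kept for each gene. No filter was applied.

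One limma 3.58.1 fit (R 4.3.3; lmFit, eBayes) covered the 10 groups. The 9 genes, the lists and the division of 12 h and 24 h by letter were chosen with earlier results of these data known. Named genes are the 9, up to 4 called genes with the largest change per list and comparison, and the 5 nearest to Chac1. Some genes of the lists were not analysed here. The number of arrays limits the precision.

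Same-lettered arrays deviated together most from 48 h to 72 h (correlations of 0.17 to 0.41 over 3 pairs). From 12 h to 24 h D-F the correlations were also above 0 in all 3 pairs, at 0.07 to 0.14. In the comparison of 72 h with 48 h the replicate block lost the call of Sesn1 (adjusted p = 0.0504) and added Gadd45a, Gpx7, Rars, Vegfa and Xbp1. Alternatives tried were that block, other groupings, probe sets, filters and normalization, and each array left out.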

Additional observations from a re-analysis of the deposited data

Results flagged for a closer look

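The change from 12 h to 24 h went in opposite directions on the 2 sets of letters for Chac1, Atf4 and Trib3: all 24 h A-C arrays lay above all 12 h A-C arrays, and all 24 h D-F arrays lay below all 12 h D-F arrays. The difference (D-F minus A-C, log2) was -2.49 for Chac1, -0.74 for Atf4 and -1.89 for Trib3. These 3 genes were chosen from these values, so the difference is given as a description, with no p-value, and was not tested independently of that choice. For Atf4 this separation of the arrays held only in the probe set with the highest mean. In its other probe sets the 12 h and 24 h D-F arrays overlapped.

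Genes of the wider lists differed in the same change by limma's interaction term. Among targets of Atf4 and Ddit3 the difference was -1.18 for Cebpb (adjusted p = 1.38e-05), -1.45 for Nupr1 (adjusted p = 0.0124) and -1.28 for Stc2 (adjusted p = 6.79e-07). Among enzymes of amino acid and one-carbon metabolism it was -0.81 for Mthfd2, -1.05 for Cth, -1.15 for Gpt2 and -0.67 for Bcat1, with limma's adjusted p-values between 2.73e-05 and 0.00914. The tRNA synthetase Wars was at -0.54 (adjusted p = 0.000995), Chac2 at -0.63 (adjusted p = 0.000457) and Cebpd at -0.92 (adjusted p = 0.00702). Chaperones of the endoplasmic reticulum differed with the opposite sign: Calr by 0.83, Pdia6 by 0.91, Sdf2l1 by 1.22 and Manf by 0.90, with adjusted p-values between 1.04e-08 and 1.06e-05. The letters and the side of the arrays in the spike-in controls cannot be told apart in any of these.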

How the results depend on the processing

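Over the named list genes, 2461 values kept direction and call, 247 lost the call (140 of these with 1 array left out) and 14 took the other sign. The settings tallied for these list genes were the mean of all probe sets, 8 groups by time alone and each array left out. For the 9 genes 744 values moved by less than the spread between arrays and 23 moved by more (20 of these where a gene's probe sets were averaged). Another 3 moved by more than that spread and took the other sign. Signs that turned within the spread are counted among the 744. Atf5 from 24 h D-F to 48 h, for example, ran from -0.15 to 0.39 with 1 array left out. The settings tallied for the 9 genes were other or averaged probe sets, quantile normalisation again and each array left out. Among counts of called genes, 130 alternatives stayed within 1.5 times the value reported and 5 did not. These concern the 3554 genes from 8 h to 12 h A-C, which became 901 with 8 groups by time alone, and the 2856 from 48 h to 72 h, which became 1083 with that grouping and 1353 with only the groups compared. Leaving out each array in turn gave 2357 to 3286 for the first, lowest without 12 h array B, and 1883 to 2736 for the second, lowest without 72 h array A. With the replicate block the counts were 3578 and 2905, and no count of calls moved by over 1.5 times.

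With 12 h and 24 h not divided by letter, some changes of list genes took the other sign. From 8 h to 12 h this gave 0.037 for Eif2ak1, -0.0089 for Eif2ak3, -0.35 for Ero1a and -0.25 for Pck2. From 8 h to 24 h it gave -0.036 for Cth, -0.11 for Jdp2, -0.048 for Nupr1 and -0.40 for Pck2. From 12 h to 24 h it gave 0.065 for Gpt2 and 0.10 for Stc2, from 24 h to 48 h -0.36 for Jdp2, and from 16 h to 24 h -0.053 for Nupr1. This grouping mixes both sides of the arrays by construction. With the mean of all probe sets, Eif2ak3 changed by -0.0037 from 8 h to 12 h A-C and Ern1 by -0.0013 from 8 h to 24 h A-C. So averaged, Sesn2 changed by 0.026 from 12 h to 24 h D-F and by 0.0035 from 12 h D-F to 72 h, and Ddit3 differed by 0.14 between the letters at 24 h. For these the probe sets of a gene disagree. The value of Tmem125 as a near gene rests on the 10 groups: over the 8 times it ranked 6.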
